A study of Mus musculus with 80 samples.

Results

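Of the 10692 reporters mapped to autosomes, 407 had 6 or more other reporters, of any pool, within 100 kb on either side, and these are the dense-cluster reporters described here. The whole table held 10903 reporters, and 0 of those on X met the same rule. The rule used positions alone and no RNA or DNA count. Of the 407, 404 had at least 10 counts in all 8 DNA libraries of their pool and were analysed, 91 in pool A, 83 in pool B, 118 in pool C and 112 in pool D. They were set against the 10172 other autosomal reporters that passed the same minimum, 2106 in pool A, 2133 in B, 2956 in C and 2977 in D. The other 3 members fell under the DNA minimum and were left out.

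The host was EBRTcH3, a line of mouse embryonic stem cells in which the endogenous ROSA26 promoter drives the tetracycline-controlled transactivator (tTA). The cells were kept in conditioned medium with leukemia inhibitory factor, the MEK inhibitor PD0325901 and the GSK-3 inhibitor CHIR99021. A barcoded piggyBac plasmid library and a transposase plasmid (mPB) were transfected together, and cells of low eGFP were sorted and grown into 4 pools, A to D, so each pool descends from sorted cells only. Each pool was divided into 2 cultures, the replicates, which are technical per the labels, and each culture was exposed to doxycycline (dox) at 0, 0.01, 0.1 or 100 ng/ml for 72 h. RNA and genomic DNA barcode libraries of the same 4 pools, 4 doses and 2 cultures make up the 64 libraries used. The titles name a tet-Off reporter while the growth and treatment protocols also name a mouse PGK promoter; the titles are followed, and the promoter cannot be told from the files. Total counts ran from 729552 to 1840870 in RNA libraries and from 928128 to 1571280 in those of DNA. Because the reads are PCR products without molecular identifiers, limits that follow from counts of 0 cover counting error only.

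In a tet-Off system tTA binds operator sequences beside the reporter's promoter and drives transcription, and dox makes tTA let go of the DNA, so the reporter is fully driven without dox and loses its activator as the dose goes up. TRIP, in which many reporters are integrated in parallel, places 1 construct at many sites and reads each copy through its barcode, so that differences between copies follow their places in the genome. The piggyBac transposon inserts at the motif TTAA and is known to land often in open chromatin and near active genes.

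Each reporter is known only by its barcode, a random run of about 16 bases that is counted in cDNA and in genomic DNA. The barcodes below belong to neighbours of different pools less than 10 kb apart in the same cluster, chosen because their RNA to DNA ratios at dox 0 were the most alike or the most unlike of 188 such pairs. They are written as deposited, and capitals mark the positions at which the barcodes of a pair differ. The first pair is the most alike, 6216 bp apart on chromosome 14, with 12 of 16 positions different.
Chromosome 14, 99724288, minus strand, pool A: TTAaCAGaAAtaCCTC
Chromosome 14, 99730504, minus strand, pool B: ACTaAGAaTCtaAACG
The next pair, also alike, lies 4231 bp apart on chromosome 1, with 13 positions different.
Chromosome 1, 39579346, minus strand, pool D: CGGTGCctAtGTAGTC
Chromosome 1, 39583577, plus strand, pool A: AAAAAActCtAATAAA
The most unlike pair lies 1497 bp apart on chromosome 14, with 15 positions different.
Chromosome 14, 49283516, plus strand, pool B: CCCCGCCAATACaACC
Chromosome 14, 49285013, minus strand, pool C: ATATAAACCGGTaGTT
Another unlike pair lies 1326 bp apart on chromosome 1, with 10 positions different.
Chromosome 1, 84855510, plus strand, pool A: GACtTCTtaatCcAGG
Chromosome 1, 84856836, plus strand, pool D: CTTtATGtaatTcGAA
Over the 1193 pairs of equal barcode length within clusters, the fewest different positions were 5, so no barcode of these pairs lay 1 or 2 base changes away from its neighbour's. The pairs of unequal length, out of 1238 pairs in all, were not compared. For 28 dense-cluster reporters the same barcode also occurred in another pool, in 0 cases within 1 Mb. G and C made up 41.5% of the barcode bases of dense-cluster reporters and 41.1% of those of other reporters.

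Joined where successive members lay at most 100 kb apart, the 407 reporters formed 75 clusters on 18 chromosomes. The largest held 12 members, the median cluster 6, and 10 held a single member. The median cluster spanned 75.7 kb and the longest 221 kb. All 4 pools were present in 27 clusters and only 1 pool in 16. Chromosome 14 had the most, with 59 members in 8 clusters, and chromosome 1 was next with 43 members. By share of a chromosome's reporters, chromosome 14 was highest at 11.6%, followed by chromosome 19 at 8.82%. Chromosome 12 had 0 members among 449 reporters. The nearest reporter lay at a median of 4824 bp from a dense-cluster reporter and 50679 bp from another reporter, a distance the rule itself shortens. The plus strand held 50.2% of the analysed dense-cluster reporters and 49.5% of the others. All positions are given as deposited (mm9), and gene features at these sites were not analysed here.

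Dense-cluster reporters gave more RNA per DNA copy than other reporters at all 4 doses and in all 4 pools. The level of a reporter is the log2 ratio of its RNA to its DNA counts, each scaled to a library total of 1e+06 with 1 added, averaged over both cultures. At dox 0 the mean level in pools A to D was 0.64, 0.53, 0.29 and 0.34 for dense-cluster reporters, against −0.99, −0.97, −0.99 and −0.94 for other reporters. The pools' values of both groups did not overlap at any dose. The difference was 1.43 ± 0.18 on the log2 scale at dox 0, 1.99 ± 0.17 at 0.01, 3.46 ± 0.23 at 0.1 and 3.27 ± 0.10 at 100 ng/ml (mean ± SD, n = 4 pools). In 4 of 4 pools it was positive at each dose, and each exact sign-flip permutation test gave p = 0.13 (two-sided, 2 of 16 sign arrangements), the smallest that 4 pools allow, so no single dose could pass 0.05. The size at the higher doses depends on the pseudocount and the average: with a pseudocount of 50 the difference was 1.78 at dox 0.1 and 1.42 at dox 100, and with medians over reporters it was 5.03 at dox 100.

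The difference in level was larger at dox 0.1 than at dox 0 in all 4 pools, and from dox 0.1 to 100 it became smaller in pools B, C and D. Over all doses it moved by 0.70 per dose step (exact permutation test over all 331776 orders of the doses in the 4 pools, two-sided p = 0.000265), and by 0.169 with a pseudocount of 50 (p = 0.0178) and 1.25 with medians (p = 6.03e-06). In units of the SD between other reporters it was 0.707 ± 0.0768, 0.860 ± 0.0729, 1.05 ± 0.0688 and 0.904 ± 0.0515 from the lowest to the highest dose (SD, n = 4 pools; trend 0.0777 per step, exact permutation p = 0.0162). This trend missed 0.05 without replicate 1 (0.0582, exact permutation p = 0.0611), without pool C (0.0717, p = 0.0609) and without pool D (0.0623, p = 0.0867). The share of pairs in which the dense-cluster reporter had the higher ratio was 72.1% ± 2.77 at dox 0, 76.2% ± 2.27 at 0.01, 79.5% ± 2.18 at 0.1 and 72.8% ± 2.11 at 100 ng/ml (mean ± SD, n = 4 pools). This rank share, which does not depend on the widening of the values, showed no called trend (0.544 percentage points per step, exact permutation p = 0.552). With a pseudocount of 50 the trend was −0.466 (exact permutation p = 0.6265). The rank of a reporter without RNA follows its DNA counts and the pseudocount, which concerns dox 100 most.

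**Figure D1:**
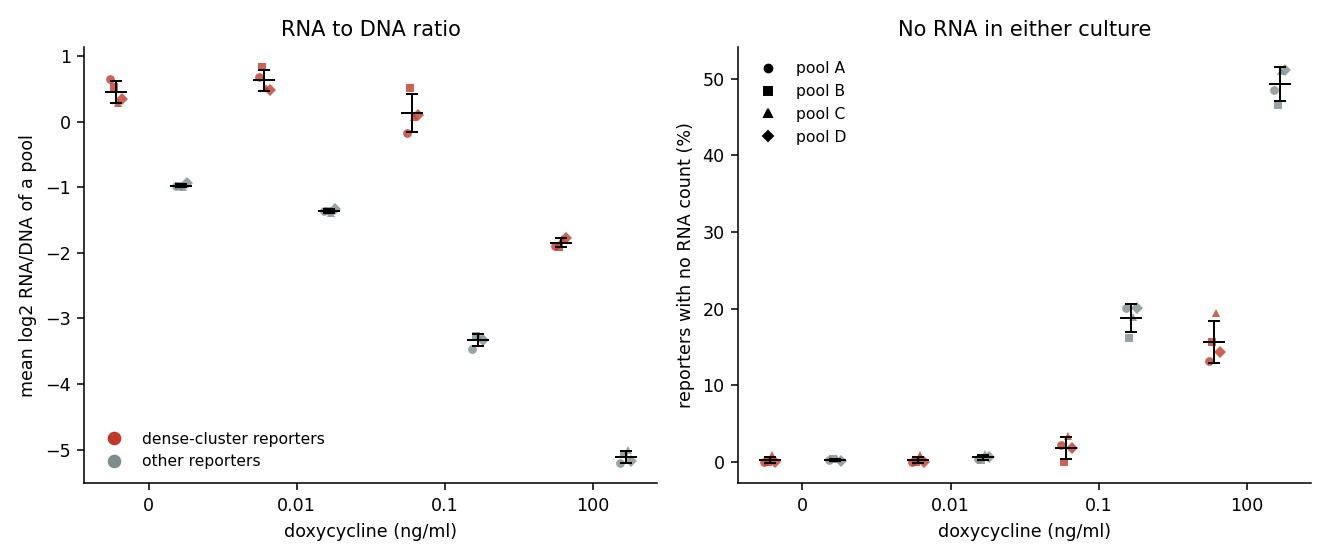
Left, mean log2 RNA/DNA of dense-cluster (red) and other (grey) autosomal reporters per pool at each dox dose; right, the percentage of reporters with no RNA count in either culture. Points are pools and bars the mean ± SD over 4 pools; dense-cluster reporters averaged 0.45 at dox 0 and −1.85 at dox 100, against −0.97 and −5.11 for the others.

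Detection changed along with the level. At dox 0 nearly every reporter gave RNA, and 0.212% ± 0.424 of dense-cluster reporters and 0.265% ± 0.101 of others had no RNA count in either culture (SD, n = 4 pools; difference −0.05 percentage points, exact sign-flip permutation p = 0.75). At dox 0.01 the shares were 0.212% ± 0.424 and 0.579% ± 0.357. At dox 0.1 they were 1.84% ± 1.40 for dense-cluster reporters and 18.8% ± 1.84 for others, and at dox 100 15.7% ± 2.75 and 49.3% ± 2.21. At dox 100 the dense-cluster share was 13.2%, 15.7%, 19.5% and 14.3% in pools A to D, against 48.5%, 46.5%, 51.0% and 51.2% for the others, with no overlap. The difference in this share moved by −11.7 percentage points per dose step (exact permutation p = 1.21e-05). RNA in both cultures was found at dox 100 for 64.4% ± 4.88 of dense-cluster reporters and 29.7% ± 2.45 of the others.

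Among reporters that kept RNA in both cultures of the dose, the difference was 1.43, 1.88, 1.73 and 1.01 on the log2 scale from dox 0 to dox 100, each with an exact sign-flip permutation p of 0.13. Its trend then ran the other way, at −0.14 per step (exact permutation p = 0.162), and in SD units at −0.10 (p = 0.0154). That comparison was chosen after the data were seen, and it selects reporters by the RNA it compares. Over all reporters, detection differed between the groups along with the level, and its part in the trend was not tested.

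DNA abundance of the clones differed in both directions between pools, with no called difference. The median DNA count, scaled to a library total of 1e+06, was 338 ± 122 for dense-cluster reporters and 293 ± 47.8 for others at dox 0 (SD, n = 4 pools). The log2 ratio was 0.15 ± 0.33 at dox 0, 0.09 ± 0.30 at 0.01, 0.18 ± 0.28 at 0.1 and 0.13 ± 0.32 at 100 ng/ml, with exact sign-flip permutation p-values of 0.375, 0.75, 0.375 and 0.5. In pool A the median was 474 for dense-cluster reporters against 325 for others at dox 0, and in pool C 214 against 251.

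Dense-cluster reporters held a larger part of the RNA counts at each higher dose on average, but not in pool D at the last step. They were 3.84% of a pool's reporters on average and held 3.95% ± 0.740 of the DNA counts at dox 0 and 4.04% ± 0.844 at dox 100. Their share of the RNA counts was 7.18% ± 1.93 at dox 0, 8.73% ± 2.44 at 0.01, 12.7% ± 3.26 at 0.1 and 13.1% ± 4.46 at 100 ng/ml (mean ± SD, n = 4 pools). Single RNA libraries spanned 8.46% to 18.9% at dox 100 and 5.10% to 9.45% at dox 0, so the ranges overlapped. In pool D the share was 11.5% and 11.1% at dox 0.1 and 8.46% and 9.37% at dox 100. The RNA share moved by 2.18 percentage points per step (exact permutation p = 0.000121), and without the single highest dense-cluster reporter of each library by 1.34 (exact permutation p = 0.00178, chosen after seeing the data). The DNA share moved by 0.0345 points per step (exact permutation p = 0.0478).

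Class means of the level were higher with more neighbours, also below the chosen limit of 6. The pools of the classes above the limit overlapped at dox 0, 0.01 and 100 ng/ml and were apart only at dox 0.1. In the following means, levels are counted from the mean of all analysed autosomal reporters of the same pool at the same dose, which is called the pool mean below. At dox 0 the 31 reporters with 10 or more neighbours stood at 1.54 ± 0.79 (SD, n = 4 pools), the 373 with 6 to 9 at 1.36 ± 0.14, the 2116 with 3 to 5 at 0.68 ± 0.07, the 4826 with 1 to 2 at 0.05 ± 0.03 and the 3230 with none at −0.70 ± 0.05. At dox 100 the same classes stood at 4.81 ± 1.69, 3.0 ± 0.21, 1.28 ± 0.14, −0.07 ± 0.06 and −1.13 ± 0.06. RNA in both cultures at dox 100 was found for 79.2%, 63.0%, 45.2%, 29.9% and 19.2% of these classes, in the same order. At dox 0 the pools of the class with 10 or more neighbours ran from 0.37 to 2.05 and took in the 6 to 9 class, from 1.19 to 1.52. At dox 100 they ran from 2.865 to 6.979, against 2.832 to 3.292 for the 6 to 9 class. Of the 31 reporters with 10 or more neighbours, 11 were the analysed reporters of 1 cluster, chr1:84784310-84870854. The class therefore leans on that place, which the spread over pools does not show. Just inside the limit, the 149 reporters with exactly 6 neighbours averaged 1.43 ± 0.26 at dox 0 and 2.67 ± 0.89 at dox 100. Just outside it, the 331 with exactly 5 averaged 0.99 ± 0.09 and 1.63 ± 0.46. Their pools overlapped at dox 100, from 1.877 to 3.759 with exactly 6 and from 1.032 to 2.008 with exactly 5.

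**Figure D2:**
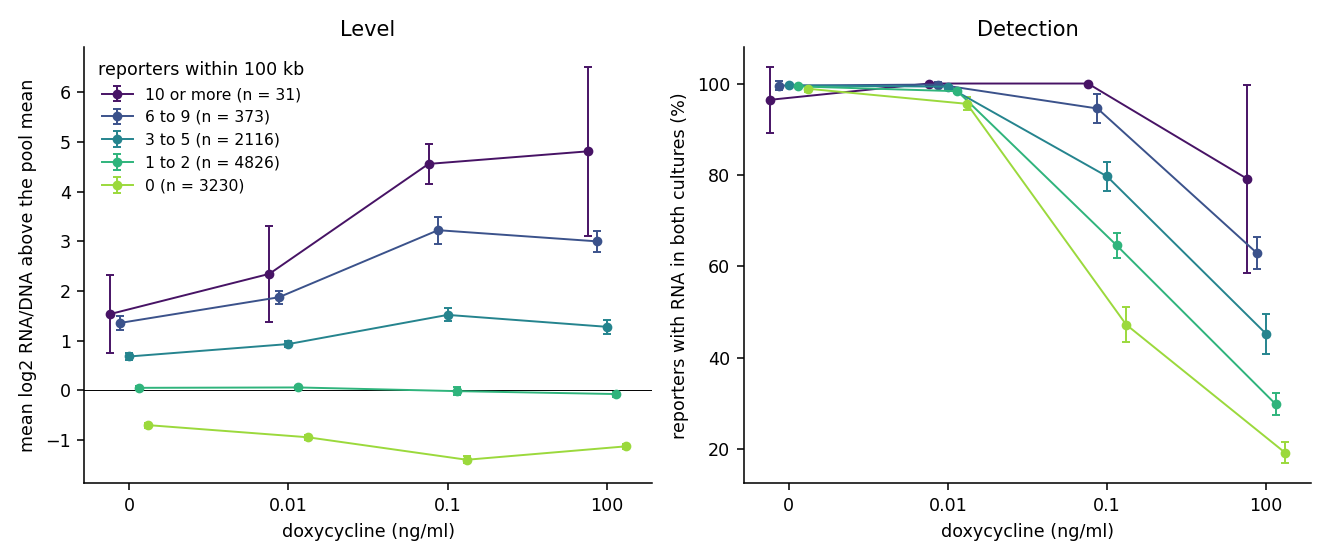
Mean log2 RNA/DNA above the pool mean (left) and the percentage of reporters with RNA in both cultures (right) at each dox dose, for classes of reporters by the number of others within 100 kb. Points and bars are the mean ± SD over 4 pools; at dox 100 the level ran from 4.81 with 10 or more neighbours to −1.13 with none.

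Reporters beside the clusters were intermediate. The 242 others within 100 kb of a dense-cluster reporter averaged 1.10 ± 0.17 above the pool mean at dox 0 and 2.08 ± 0.44 at dox 100 (SD, n = 4 pools). The 655 others at 100 kb to 1 Mb averaged 0.28 ± 0.11 and 0.17 ± 0.26, and the 9275 farther away −0.11 ± 0.01 and −0.21 ± 0.02. Dense-cluster reporters themselves averaged 1.37 ± 0.17 and 3.14 ± 0.10. Set against only the others within 1 Mb, a comparison chosen after the data were seen, the difference was 0.87 at dox 0 and 2.45 at dox 100 (exact sign-flip permutation p = 0.13 each). Counting only neighbours of other pools, which share no culture with the reporter, the differences were 1.27 and 3.12.

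Up to dox 0.1, levels varied less within clusters than among the other reporters. The spread is taken as the root of the between-culture covariance over reporters, which leaves out scatter that the cultures do not share. DNA abundance that the cultures share is not left out, and it sets the level where RNA was 0 in both. At dox 0.1 that was 1.84% of dense-cluster reporters and 18.8% of others, and at dox 100 15.7% and 49.3%. Within clusters the spread was 1.31 ± 0.32 on the log2 scale at dox 0, 1.42 ± 0.38 at 0.01, 1.85 ± 0.32 at 0.1 and 2.98 ± 0.61 at 100 ng/ml, while among the other reporters it was 1.96 ± 0.04, 2.26 ± 0.02, 3.11 ± 0.04 and 3.32 ± 0.09 (SD, n = 4 pools). Each pool entered with 22 to 34 clusters that held at least 2 of its reporters. The ratio of the within-cluster spread to that of other reporters was 0.674, 0.629 and 0.596 at the first 3 doses, below 1 in 4 of 4 pools, with an exact sign-flip permutation p of 0.13 each. Its size at dox 0.1 depends on the pseudocount, with 0.512, 0.689 and 0.883 at pseudocounts of 0.1, 5 and 50.

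At dox 100 the ratio was 0.898 ± 0.173 (exact sign-flip permutation p = 0.5), with 0.696, 1.07, 1.01 and 0.814 in pools A to D. Pools A and B had the lowest ratios at dox 0, 0.498 and 0.550, while pools C and D stood at 0.833 and 0.814. The ratio's trend over the doses was 0.0640 per step (exact permutation p = 0.0764). Over all dense-cluster reporters, within and between clusters together, the spread was 1.41 ± 0.24, 1.55 ± 0.21, 2.46 ± 0.23 and 3.77 ± 0.33 from dox 0 to dox 100. The within-cluster spread made up 0.926 of it at dox 0, 0.902 at 0.01, 0.752 at 0.1 and 0.784 at 100 ng/ml (exact sign-flip permutation p = 0.25, 0.375, 0.13 and 0.13; trend −0.0577 per step, exact permutation p = 0.00637). In pool D it made up 1.02 at dox 0 and 1.06 at 0.01, so reporters of 1 cluster were there no more alike than dense-cluster reporters at large.

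**Figure D3:**
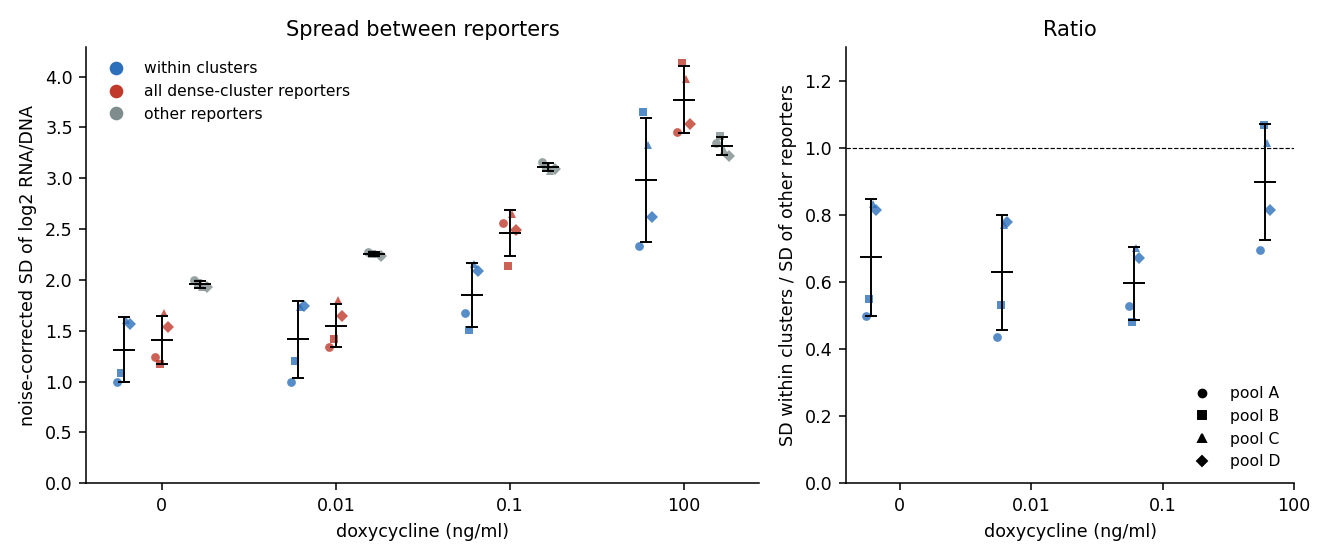
Left, noise-corrected SD of log2 RNA/DNA within clusters (blue), over all dense-cluster reporters (red) and over other reporters (grey) at each dox dose; right, the ratio of the SD within clusters to that of other reporters. Points are pools and bars the mean ± SD over 4 pools; the ratio was below 1 in all pools up to dox 0.1 and above 1 in pools B and C at dox 100.

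At dox 0, reporters of 1 cluster were about as alike at long as at short distances. In pairs of different pools the median absolute difference was 1.13 on the log2 scale up to 1 kb apart (29 pairs), 1.00 at 1 to 10 kb (167 pairs), 1.10 at 10 to 50 kb (389 pairs) and 1.06 beyond 50 kb (334 pairs). At dox 100 it was 2.69, 2.10, 2.46 and 3.24 in the same order. These pairs share reporters and clusters, so no test was made. Of the pairs shown with their barcodes, the most alike on chromosome 14 had 578 and 681 RNA counts at dox 0 in the pool A reporter and 2007 and 2318 in the pool B reporter, beside 144 and 188, and 471 and 660, DNA counts. Both stood 2.63 above the pool mean. At dox 100 the pool A reporter stood 7.53 above it and the pool B reporter 11.5. The pair was chosen for its likeness at dox 0, so nothing is read from its larger difference at dox 100.

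The most unlike pair at dox 0, 1497 bp apart on chromosome 14, had 728 and 692 RNA counts in the pool B reporter and 0 RNA counts in both cultures of the pool C reporter. The pool C reporter had 0 RNA counts in all 8 of its RNA libraries, where a count of 0 allows up to 3, beside 131 to 243 counts in its 8 DNA libraries. The pair on chromosome 1 was as uneven, with 5251 and 5136 RNA counts at dox 0 in the pool A reporter at 84855510 and 3 and 0 in the pool D reporter at 84856836. That pool D reporter stood at −6.74 and the pool C reporter without RNA at −6.23, values that largely follow the DNA counts and the pseudocount, so their order is not read.

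Most clusters stood above the pool mean as a whole. Of the 45 clusters with at least 5 analysed reporters, 43 had a mean above the pool mean at dox 0, 43 at 0.01, 43 at 0.1 and 38 at 100 ng/ml. Their means at dox 0 ran from −0.43 to 2.41, with a median of 1.32. At dox 100, all reporters had RNA in both cultures in 6 of these clusters, some in 37 and none in 2.

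**Figure D4:**
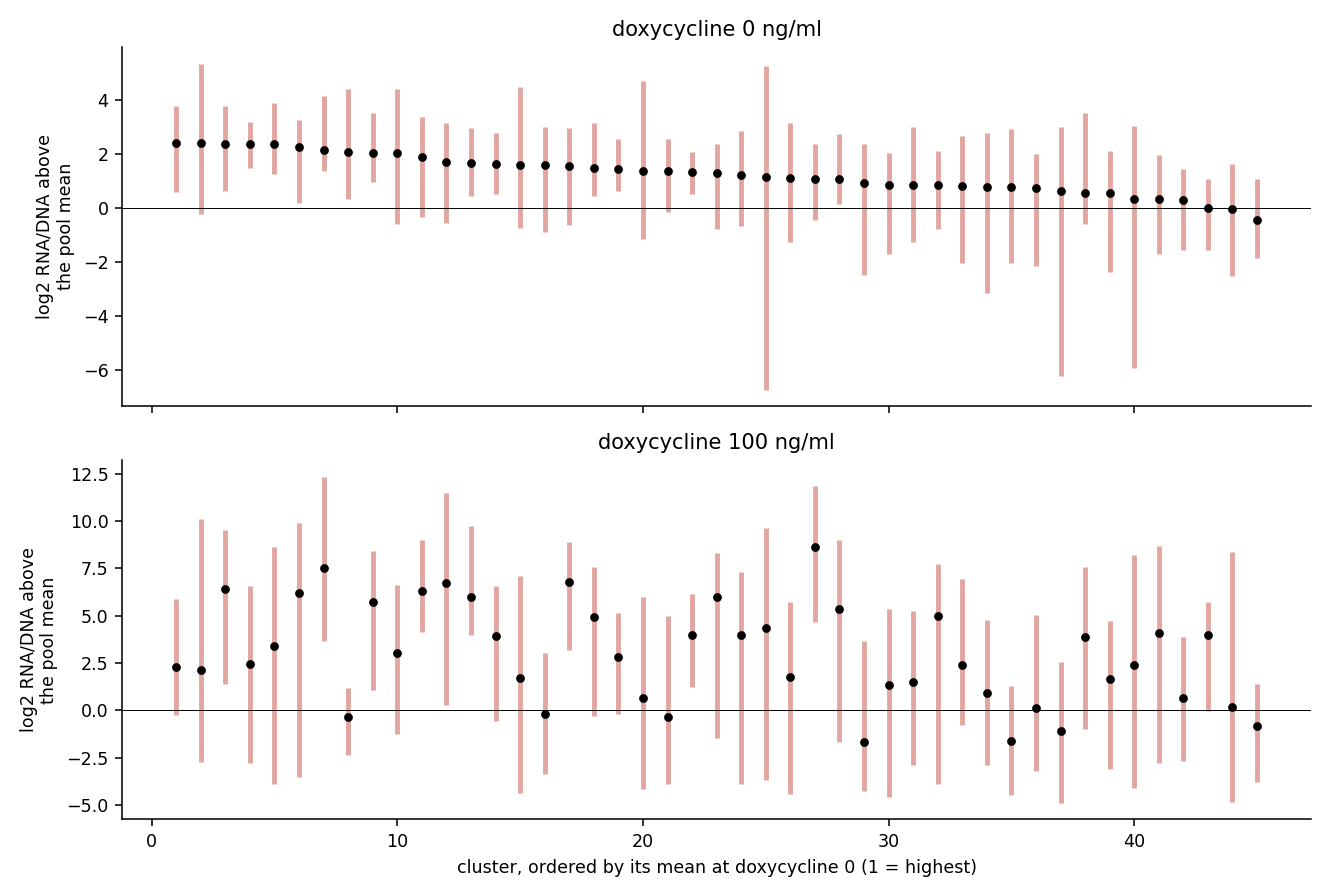
The 45 clusters with at least 5 analysed reporters, in the order of their mean at dox 0, shown at dox 0 (top) and dox 100 (bottom). Dots are cluster means and bars run from the lowest to the highest reporter, in log2 RNA/DNA above the pool mean; 43 means lie above 0 at dox 0 and 38 at dox 100.

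The cluster chr1:84784310-84870854, with 11 analysed reporters of 4 pools, had the widest range at dox 0. Its levels averaged 1.15 and ran from −6.74 to 5.26, that is from 3 and 0 RNA counts in the pool D reporter at 84856836 to 1876 and 1746 in the pool C reporter at 84836368. The low end rests on that 1 reporter, whose value largely follows its DNA counts and the pseudocount. The next lowest was the pool D reporter at 84870854, at −0.33. At dox 100, 8 of the 11 kept RNA in both cultures and 2 had none. The pool C reporter at its proximal end, 84784310, gave 0 RNA counts in both cultures at dox 100, against 966 and 1000 at dox 0, its RNA to DNA ratio at least 338-fold lower when the RNA sum of both cultures is set to 3 counts and all libraries are scaled to their totals (edgeR adjusted p = 9.63e-06). The pool A reporter at 84855510 had 8100 and 9133 counts at dox 100, against 5251 and 5136 at dox 0, and its ratio changed by 2.29 ± 0.42 on the log2 scale (SE, with an edgeR adjusted p of 0.000774). The pool D reporter at 84856836 gave 53 and 0 RNA counts at dox 100 and was called higher (edgeR adjusted p = 0.0367), a call that rests on 1 library.

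Some other large clusters were more even at dox 0. In chr4:116956568-117139625 all 11 analysed reporters stood between 0.97 and 3.52 at dox 0, and 10 kept RNA in both cultures at dox 100. In chr11:107171483-107296994 the range was 0.62 to 3.80 at dox 0, all 11 kept RNA in both cultures at dox 100, and the mean moved to 6.42 above the pool mean there, against 2.39 at dox 0. In chr14:76856576-77060755 the 11 reporters ran from −0.68 to 2.87 at dox 0, and 10 kept RNA in both cultures at dox 100. The 10 reporters of chr14:99665241-99811277 averaged 6.70 at dox 100 and 1.70 at dox 0, and those of chr8:80602382-80663382 averaged 4.10 and 0.33.

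In chr6:120022187-120243681, the longest, the 10 reporters averaged 0.65 at dox 100, when 5 kept RNA in both cultures and 3 had none, and 1.36 at dox 0. In chr10:92592756-92729601 the mean was 0.90 at dox 100 and 0.80 at dox 0, and 4 of 9 kept RNA in both cultures. The 9 reporters of chr1:77369064-77469682 averaged 5.37 at dox 100 and 1.09 at dox 0, and those of chr13:40944555-41063080 averaged 3.95 and 1.63. A cluster's mean above the pool mean can grow while its RNA falls, since the pool mean itself falls with the dose.

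Clusters named for a narrow range at dox 0 had a wider range at dox 100. They were chosen for that narrow range, so nothing is read from the widening. Among other reporters too, the spread was 1.96 at dox 0 and 3.32 at dox 100. The cluster chr14:65202507-65275863 held 9 reporters within a narrow range at dox 0, from 1.5 to 3.18, with a mean of 2.37. At dox 100 they ran from −2.77 to 6.57, with a mean of 2.43, while 5 kept RNA in both cultures. Of the 9, 4 were called lower and 0 higher, where 50.4% and 10.9% of all reporters were. The narrowest at dox 0 among clusters with at least 5 analysed reporters was chr1:39560593-39587923, with 8 reporters of 4 pools from 0.53 to 2.10, of which 7 kept RNA in both cultures at dox 100, from 1.24 to 6.15 over all 8. Its mean was 3.99 at dox 100 and 1.35 at dox 0. Among the same clusters, the highest mean at dox 100 was that of chr2:20573004-20660550, 8.61 over 8 reporters of 3 pools, although its mean at dox 0 was 1.09. It was followed by chr17:37067763-37163452 at 7.49 and chr8:91471706-91549119 at 6.78, in both of which every analysed reporter kept RNA in both cultures.

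Among the clusters with at least 5 analysed reporters, the lowest means at dox 100 were those of chr9:69884203-69974173 at −1.68, chr14:102137020-102227913 at −1.62 and chr14:49272476-49357061 at −1.09. At dox 0 these stood at 0.95, 0.79 and 0.65, above the pool mean. The lowest of these clusters at dox 0 were chr11:107830627-107918373 at −0.43 and chr6:136896303-136969387 at −0.03. The first of these lies on the same chromosome as the even, high cluster that ends at 107296994, a pair of dense clusters at opposite ends of the order on 1 chromosome.

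**Figure D5:**
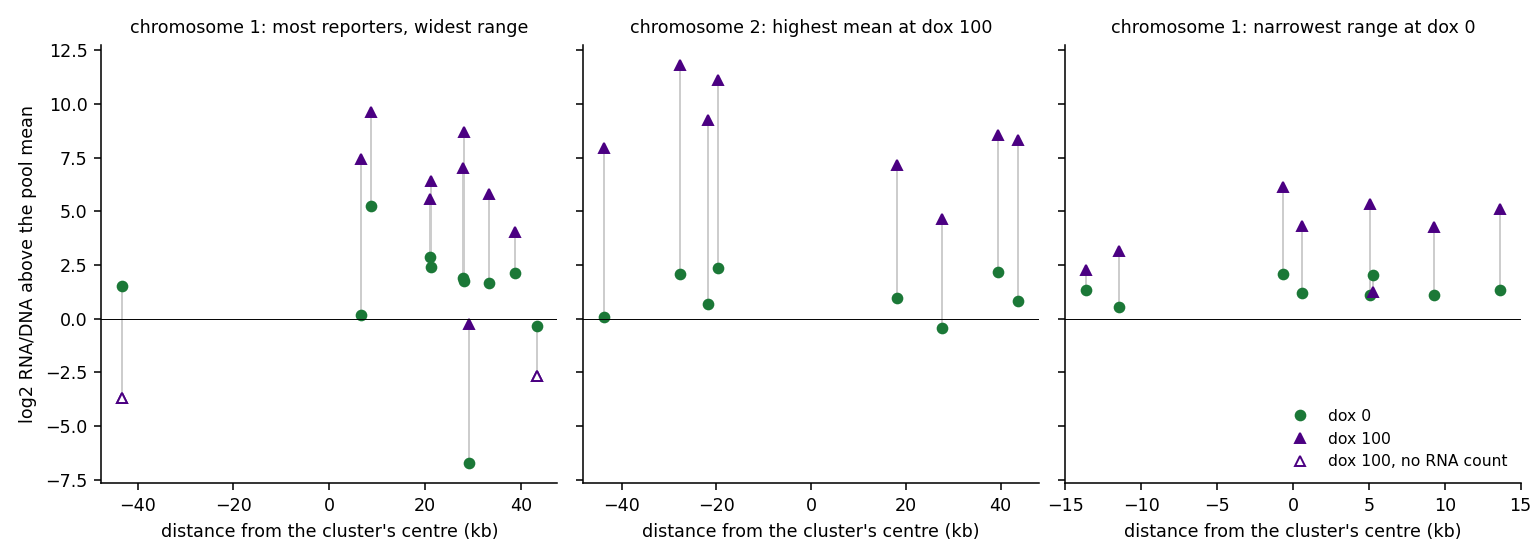
Log2 RNA/DNA above the pool mean of each analysed reporter against its distance from the cluster's centre, at dox 0 (green circles) and dox 100 (purple triangles, open where no RNA was counted), in 3 of the clusters with at least 5 analysed reporters. The left cluster runs from −6.74 to 5.26 at dox 0, the middle one averages 8.61 at dox 100, and the right one stays between 0.53 and 2.10 at dox 0.

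Against dox 0, dense-cluster reporters were called higher more often and lower less often than other reporters, relative to the scaling of the RNA libraries to each other. Calls come from edgeR's quasi-likelihood test of the RNA to DNA ratio with Benjamini-Hochberg adjustment within each pool over all its reporters, at 0.05. A decline common to every reporter is invisible after that scaling. At dox 0.01, 0 of 404 were called higher, where 0.0185% of all reporters were, and 0 lower, where 0% were. The unadjusted p was below 0.05 for 45 of them, and DESeq2's Wald test called 1 higher and 1 lower. Their median log2 change was 0.37, and that of all reporters −0.12.

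At dox 0.1, 127 of the 404 dense-cluster reporters (31.4%) were higher, where 9.07% of all reporters were called, and 12 (2.97%) were lower, where 19.8% of all were. The share called higher exceeded that of the others by 23.8 ± 5.83 percentage points (SD, n = 4 pools), and the share called lower differed by −17.9 ± 2.55, each with an exact sign-flip permutation p of 0.13. Higher calls occurred in 44 clusters and lower calls in 8. The median log2 change was 0.96 for dense-cluster reporters and −0.80 for all, and with library totals as the scaling these were −0.18 and −1.96, so the sign of the first depends on the scaling. With DESeq2 size factors 75 were higher and 38 lower, and with library totals 66 and 46, so that higher calls were 66.4% and 58.9% of the calls in place of 91.4%. Without dox 0 replicate 1 or 2, 81 and 77 were higher and 5 and 4 lower. The gap between the 2 medians was 1.75, 1.79 and 1.78 under the 3 scalings.

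At dox 100, 109 (27.0%) were higher, where 10.9% of all reporters were, and 103 (25.5%) were lower, where 50.4% were. Dense-cluster reporters exceeded the others by 16.9 ± 5.41 percentage points in higher calls, and differed by −25.5 ± 5.05 in lower calls (SD, n = 4 pools; exact sign-flip permutation p = 0.13 each). The median log2 change was −0.12 for dense-cluster reporters and −4.12 for all, and −1.42 and −5.15 with library totals. There 67 were higher and 147 lower, and with DESeq2 size factors 79 and 127, so that higher calls were 31.3% and 38.35% of the calls in place of 51.4%. Without dox 100 replicate 1, 173 were lower. Of the 45 clusters with at least 5 analysed reporters, 18 held both higher and lower calls, 18 held lower but no higher ones, and 9 held no lower ones. In 0 of them were all reporters called higher, or all called lower.

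The 5 reporters named for the largest called rises at dox 0.1 or 100 lay in 2 clusters. In the chromosome 2 cluster described above, the pool C reporter at 20589063 gave 345 and 371 RNA counts at dox 0, 782 and 762 at 0.01, 8790 and 7580 at 0.1, and 21677 and 18901 at 100 ng/ml, beside 118 and 99 DNA counts at dox 0 and 172 and 178 at dox 100. Its RNA counts were higher at each dose than at the one below, in both cultures. The log2 change in its ratio was 6.51 ± 0.24 at dox 0.1 (SE; edgeR adjusted p = 1.85e-08) and 6.84 ± 0.24 at dox 100 (edgeR adjusted p = 1.06e-08). Its pool B neighbour at 20597051 gave 32901 and 52095 RNA counts at dox 100, against 2188 and 2647 at dox 0 (log2 change 6.09 ± 0.41, edgeR adjusted p = 1.23e-06). The pool C reporter at 20594955 rose by 6.14 ± 0.81 on the log2 scale at dox 0.1 (edgeR adjusted p = 0.00032). In the same cluster 7 of 8 reporters were called higher at dox 100, and 0 lower, where 10.9% and 50.4% of all reporters were. The cluster was named for its mean at dox 100 and for its largest rises, so nothing is read from that count. Library totals count the reads of these reporters too, so such reporters weigh on the scaling of their own libraries.
Chromosome 2, 20589063, minus strand, pool C: taaagaaacagactga
Chromosome 2, 20597051, plus strand, pool B: gtatacgttgaaccag

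A second place lay on chromosome 5. The pool C reporter at 104135739 gave 5613 and 7695 RNA counts at dox 100, against 331 and 384 at dox 0, and its ratio changed by 6.53 ± 0.97 on the log2 scale (SE, with an edgeR adjusted p of 0.000153). The pool D reporter at 104142884 gave 4557 and 2189 RNA counts at dox 0.1, against 722 and 706 at dox 0 (log2 change 5.68 ± 0.89, edgeR adjusted p = 0.000939). The DNA counts of the pool D reporter were 75 and 12 at dox 0.1, so its ratio there rests partly on few DNA reads.

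The 3 reporters called lower at dox 100 that had the most RNA reads at dox 0, scaled to library totals, kept RNA at dox 100. On chromosome 11, the reporter at 79523818 (pool A) gave 273 and 437 RNA counts with dox 100, against 6633 and 8486 without dox, and its ratio changed by −3.05 ± 0.50 on the log2 scale (SE, with an edgeR adjusted p of 0.000325). On chromosome 15, the one at 77724022 (pool B) gave 220 and 248, against 6734 and 7312 (−2.32 ± 0.40, edgeR adjusted p = 0.000457). On chromosome 14, the one at 65275863 (pool D) gave 1168 and 1407, against 6583 and 6664 (−0.65 ± 0.24, edgeR adjusted p = 0.0346). Despite these falls they stood 3.85, 3.96 and 4.62 above the pool mean at dox 100.

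Other falls ended with no RNA. At the distal end of the longest cluster, a reporter of pool C (chromosome 6, 120243681) gave no RNA count in either culture at dox 100 and 271 and 162 at dox 0.1, against 2572 and 2701 at dox 0. With the sum of both cultures set to 3 counts, its RNA to DNA ratio, scaled to library totals, was at least 1509-fold lower at dox 100 (edgeR adjusted p = 1.03e-06), and its log2 change at dox 0.1 was −1.96 ± 0.51 (edgeR adjusted p = 0.0158). Another of pool C (chromosome 14, 102227913) gave 0 in both cultures at dox 100, against 1523 and 1635 at dox 0, its ratio at least 514-fold lower on the same floor (edgeR adjusted p = 1.42e-06). A reporter of pool A (chromosome 11, 117546478) went both ways, with a log2 change of −1.30 ± 0.36 at dox 0.1 (edgeR adjusted p = 0.0154) and 0.90 ± 0.35 at dox 100 (edgeR adjusted p = 0.0453). It had 1526 and 1153 RNA counts at dox 100, 502 and 391 at dox 0.1, and 2267 and 2709 at dox 0, so the call at dox 100 is relative to the libraries' scaling.

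The highest dense-cluster reporter at dox 0 was one of pool C (chromosome 3, 95089016), 5.50 ± 2.88 above the pool mean (SD, n = 2 cultures). It had 2199 and 2040 RNA counts beside 279 and 12 DNA counts, so its level differed between the cultures through the DNA. At dox 100 it had 115 and 165 RNA counts and a log2 change of −3.36 ± 1.23 (SE; edgeR adjusted p = 0.0322).
Chromosome 3, 95089016, minus strand, pool C: ccactattaacagcca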

How the data were processed

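The deposited values are unnormalized barcode read counts; per the file headers, cDNA and genomic DNA have their own columns, and each reporter has a chromosome, position and strand. The submitters' processing notes name Bowtie2 2.0 and mm9 but no role for either, and barcode calling and filtering by the authors are not given in the sources used here. In all, 0 columns of sample values were left unused, and 16 further libraries served to map the positions.

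Neighbours of any pool were counted on the deposited positions. Counts were divided by library totals, and log2 RNA/DNA was formed with a pseudocount of 1 after scaling to 1e+06. The pool is the unit of every comparison between groups (n = 4), since reporters of a pool share cultures; sign-flip tests over 4 pools cannot give p below 0.13. Calls used edgeR 4.0.16 in R 4.3.3, with 1 model per pool over its 16 libraries (assay, dose, and their interaction; TMM within each assay). The SE given with a log2 change is that change, unsigned, over the root of its F statistic. Cultures share a number because each culture was divided over the doses, so the numbers pair libraries by design, per the labels' protocols; deviations of same-numbered libraries from their group means had r of −0.0466 to 0.0446. Replicate libraries differed by more than sampling noise (lowest chi-square per degree of freedom 4.50).

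Other tools were matplotlib 3.10.9, scipy 1.17.1, pandas 2.3.3, numpy 2.4.6, Python 3.11.15 and DESeq2 1.42.0. The statistics were tested on simulated data. For the edgeR fit, equal numbers of reporters were raised and lowered there, while in the data most calls at dox 100 were lower. The dependence of the calls on the scaling was therefore not covered. The rule for members, the lists and the tests were chosen with earlier results of these data known. Clusters named are the 10 with most analysed reporters and, among those with at least 5, the 3 highest and lowest by mean at dox 0 and 100 and by range at dox 0. Reporters named are the extremes at dox 0, the 3 largest called rises, the 3 called falls with most RNA at dox 0, and the 3 most alike and most unlike pairs. Not every item that the rule gives is described. Clusters and reporters on chromosome 18 are counted but not named. Sign-flip p-values measure the spread between pools. P-values of dose trends come from reordering the doses within each pool. They test the order of the doses in these pools and do not measure the spread between pools. For edgeR, p-values measure the spread between 2 cultures of 1 pool, which is technical.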

Additional observations from a re-analysis of the deposited data

Results flagged for a closer look

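Some measures that set dense-cluster reporters against others, against the library, or within clusters against between them changed with the dox dose (exact permutation of the doses within 4 pools). The level difference moved by 0.7001 on the log2 scale per step (exact permutation p = 0.000265), and in SD units by 0.07769 (p = 0.0162). The difference in the share without RNA moved by −11.73 percentage points (exact permutation p = 1.21e-05). The dense-cluster share of RNA counts moved by 2.179 points (exact permutation p = 0.000121) and that of DNA counts by 0.03446 (p = 0.0478). The ratio of the spread within clusters to that over all dense-cluster reporters moved by −0.05765 (exact permutation p = 0.00637). The spread within clusters itself moved by 0.54 per step (exact permutation p = 1.21e-05), beside 0.49 for other reporters. Not below 0.05 was the trend of the rank share, 0.544 percentage points per step (exact permutation p = 0.552). Nor was that of the ratio of the spread within clusters to that of other reporters, 0.0640 (exact permutation p = 0.0764). These p-values are not adjusted over the 10 trends computed, which share libraries.

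Pool C stood apart from the other pools in 3 of 45 groups of 4 pools. The rule's chance rate of about 1 in 20 groups does not apply where the other pools are all equal, as here. Of its dense-cluster reporters, 0.8475% had no RNA at dox 0 and 0.8475% at dox 0.01, where the other pools had 0%. At dox 0.01, 99.15% had RNA in both cultures, where the other pools had 100%. Each of these values is 1 reporter of 118, and each time the same one, the reporter on chromosome 14 at 49285013 with 0 RNA counts.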

How the results depend on the processing

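The level difference at each dose kept its direction under the alternatives run, where its p could not pass 0.05, and the trends of the level difference and of RNA detection kept direction and side of 0.05, except that with only reporters with RNA in both cultures the trend of the level difference was −0.1407 (exact permutation p = 0.162) and in SD units −0.1009. Sizes moved more: the level difference at dox 100 ran from 1.01 with those reporters and 1.42 with a pseudocount of 50 to 5.03 with medians, at dox 0.1 it was 1.73 and 1.78 with the first 2 of these, against others within 1 Mb it was 0.869 at dox 0 and 1.28 at 0.01, and its trend was 0.169, 0.438 and 1.11 with pseudocounts of 50, 5 and 0.1, 0.454 with a window of 200 kb, 1.21 for 10 or more neighbours and 1.25 with medians. With 1 replicate left out, a reporter counts as without RNA when the remaining culture has 0, a looser measure than 0 in both. The difference at dox 0.1 was then −28.4 percentage points without replicate 1 and −21.3 without replicate 2, against −17.0 over both cultures. The SD-unit trend missed 0.05 with a pseudocount of 50 (0.0499), a window of 200 kb (0.0395) and means of cluster means (0.0584), without replicate 1 (0.0582, exact permutation p = 0.0611), without pool C (0.0717, p = 0.0609) and without pool D (0.0623, p = 0.0867). It passed without replicate 2 (0.0625, exact permutation p = 0.0419), and ran from 0.0582 to 0.0625 over replicates and from 0.0623 to 0.0891 over pools left out. The rank-share trend was −0.466 with a pseudocount of 50, −0.0580 with a window of 200 kb and 2.64 (exact permutation p = 0.0440) for 10 or more neighbours. The dox 0 difference in reporters without RNA, −0.05 percentage points, turned to 0.150 with a DNA minimum of 100 (0.00826 at dox 0.01) and 0.0690 against others within 1 Mb, and ran from −0.314 to 0.155 over libraries left out (0.155 without replicate 1, 0.0392 without pool B). The spread trend was 0.0821 and 0.0981 with pseudocounts of 5 and 50 (exact permutation p = 0.00635 and 9.04e-05), and the dox 100 spread ratio 1.05 with 50.

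The share called higher at dox 0.1 was 18.56% with DESeq2 size factors, 16.34% with library totals and 48.39% for 10 or more neighbours, and 19.06% to 26.49% over cultures left out. The share called lower there was 9.406%, 11.39%, 14.85% with DESeq2's Wald test, 0.9901% with DNA as an offset, 6.44% for 4 or more neighbours and 0% for 10 or more, and 0.9901% to 4.455% over cultures left out. At dox 100, 16.58% were higher with library totals and 41.94% for 10 or more neighbours, where 6.452% were lower; 19.55% to 42.82% were lower over cultures left out, the highest without dox 100 replicate 1. At dox 0.01, DESeq2's Wald test called 0.2475% higher and 0.2475% lower, and 0.07077% were higher for 4 or more neighbours. The class with 10 or more neighbours held 31 reporters, 11 of them in 1 cluster. The causes were not tested. With the replicate block, 27.97% were higher and 2.228% lower at dox 0.1, and 25.99% and 24.75% at dox 100, so the block moved no count by over 1.5 times. At dox 100 a count of 0 sets many levels, which then follow DNA counts and the pseudocount.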
